A study of Homo sapiens with 48 samples.

Results

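Prostaglandins are lipid signals made from arachidonic acid, which cytosolic phospholipase A2 (PLA2G4A) frees from membrane lipids. The cyclooxygenases PTGS1 (COX-1) and PTGS2 (COX-2) turn arachidonic acid into prostaglandin H2, and terminal synthases finish the product: PTGES makes prostaglandin E2 and PTGIS makes prostacyclin. Receptors on the cell surface read the product, PTGER2 and PTGER4 for prostaglandin E2 and PTGFR for prostaglandin F2α, and HPGD oxidizes prostaglandins to forms with little activity. In fibroblasts PTGS2 is known as the cyclooxygenase that inflammatory cytokines induce, while PTGS1 is usually described as constitutive. The RNA of these 9 genes, taken by symbol from a table of 29744 genes, was followed in human fibroblasts. All 9 are listed in the table, and 6 of them (PTGS1, PTGS2, PTGES, PTGFR, PTGER4 and PLA2G4A) passed the filter on low counts in both arms of the study. PTGER2, PTGIS and HPGD did not pass and are described by their counts.

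The cells were IL11mNG fibroblasts, an immortalized human skin fibroblast line with an mNeonGreen reporter placed at IL11, grown from single-cell clones of that knock-in. In the CRISPRko arm the cells carried Cas9, with a control gRNA (H47_Ctrl) or a gRNA against GLIS3, a zinc finger transcription factor (H47_KO). In the CRISPRa arm they carried dCas9–VP64, a Cas9 that cannot cut and is fused to a transcription activator. The 2 groups of this arm, VP64_Ctrl and VP64_A, differed in carrying a control gRNA or a gRNA against GLIS3. The gRNAs came by lentivirus and each population was selected in bulk, so H47_KO is a mixture of edited cells. Each of the 4 groups of cells was stimulated with TGFβ and IL-1β together, 10 ng/ml of each, for 0, 6, 12 or 24 h. There were 3 libraries for each of the 16 conditions and 48 libraries in all. The labels of the CRISPRa arm disagree: the libraries described as VP64_A carry titles of a control and those described as VP64_Ctrl carry titles of GLIS3 activation. The groups are named here by the descriptions.

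The libraries held 2321990 to 10661004 estimated counts, with a median of 5139650. In normalized CPM, which are counts scaled to the size of the library, GLIS3 ran from 16.6 to 36.7 over the 12 VP64_A libraries and from 1.91 to 6.31 over the 12 of VP64_Ctrl, so its level went with the descriptions. H47_KO ran from 0.144 to 1.63 and H47_Ctrl from 1.45 to 6.47, without overlap within any time. By these GLIS3 levels VP64_A is read here as the group with GLIS3 activated. The 8 fibroblast markers examined were above 0 in every library, and EPCAM, a defining epithelial gene, was at 0 in all 48. Of the 4 epithelial and keratinocyte markers, KRT14 alone moved with a group: it reached 14.1 to 78.9 TPM, a measure scaled for both library and transcript length, in VP64_A, 2.17 to 12.8 in VP64_Ctrl and at most 1.66 in the CRISPRko arm, while CDH1 and KRT5 stayed at or below 0.125. The summed endothelial markers were at most 0.615 TPM. Of the 4 leukocyte markers, PTPRC, the defining one, was at most 0.505 TPM and above 0 in 11 libraries, CD14 and CSF1R reached at most 2.35 and 2.46, and CD68, a lysosomal protein that is not limited to leukocytes, was above 0 in all 48, at 13.6 to 69.6. The summed leukocyte markers differed between groups, at 15.6 to 19.6 TPM in VP64_A and 35.4 to 49.4 in VP64_Ctrl at 0 h, and 30.7 to 37.8 against 55.1 to 69.9 at 24 h. In H47_KO they were 27.3 to 44.05 against 16.7 to 20.6 in H47_Ctrl at 0 h, and 37.7 to 58.2 against 16.9 to 23.6 at 24 h. The part of KRT14 or of the leukocyte markers in the differences between groups given below was not tested. In bulk RNA, fewer cells of a type and less RNA per cell cannot be told apart. The scaling (TMM) factor ran from 0.681 to 1.84, and was highest in replicate 3 of VP64_Ctrl at 0 h, where the 50 most abundant genes took the smallest share of the counts, 23.1%.

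The promoters of PTGS2 and PTGES are shown because among the 6 members tested these genes reached the largest differences between VP64_A and VP64_Ctrl that passed the test. Each is the 250 bases before the RefSeq start on GRCh38.p14, read 5′ to 3′ on the gene's own strand. PTGS2 lies on the minus strand (promoter chr1:186680424-186680673), and the 73 bases farthest from the start, the first 73 as printed, are also an exon of the antisense long noncoding RNA PACERR. PTGES lies on the minus strand as well (promoter chr9:129753043-129753292). Capitals mark matches to the motifs searched.
PTGS2: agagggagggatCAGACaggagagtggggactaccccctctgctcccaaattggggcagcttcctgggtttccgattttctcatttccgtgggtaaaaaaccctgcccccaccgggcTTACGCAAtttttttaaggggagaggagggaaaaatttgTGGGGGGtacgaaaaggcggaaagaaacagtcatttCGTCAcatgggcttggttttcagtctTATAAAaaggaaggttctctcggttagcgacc
PTGES: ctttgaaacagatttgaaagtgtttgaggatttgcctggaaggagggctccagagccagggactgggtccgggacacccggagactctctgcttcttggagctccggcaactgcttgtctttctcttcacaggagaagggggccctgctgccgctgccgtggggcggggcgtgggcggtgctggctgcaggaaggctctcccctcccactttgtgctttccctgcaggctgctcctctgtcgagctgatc

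The motifs were searched on both strands. In the PTGS2 window the letters of a SMAD motif (CAGAC) stood 238 to 234 bases before the start, a C/EBP match (TTNNGNAA) 133 to 126, a GLIS match (TGGGGGG) 94 to 88, the short core of a cAMP response element (TGACG, here on the other strand) 58 to 54, and a TATA box (TATAAA) 32 to 27. No match to the NF-κB consensus (GGGRNWYYCC), AP-1 (TGANTCA), the full cAMP response element (TGACGTNA) or TEAD (GGAATG) was in that window. The PTGES window held no match to any of the motifs. Only exact matches were counted. In the PTGS2 window the letters gggactaccc miss the NF-κB pattern only by an A where C or T is required. The lack of a match is therefore not the lack of a site. The short core is part of the full element, so their matches can overlap. Among 35116 RefSeq promoters of this length, the share with a match was 38% for SMAD, 33.2% for C/EBP, 21.2% for the short core, 11.9% for TEAD, 10.7% for the TATA box, 7.12% for GLIS, 6.57% for AP-1, 5.21% for NF-κB and 2.67% for the full element. Promoters of 8 of the 9 genes were found in the RefSeq table. A match describes letters only and is no evidence of binding.

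PTGS2 rose steeply and then fell. In H47_Ctrl its normalized CPM was 76.8, 80.3 and 67.5 at 0 h, 695, 1727 and 1418 at 6 h, 143, 129 and 122 at 12 h, and 14.1, 13.1 and 14.7 at 24 h. In H47_KO it was 80.4, 81.6 and 69.0, then 1261, 1749 and 1001, then 151, 153 and 151, and then 11.7, 8.19 and 11.1. In both groups every 6 h library stood above every 0 h library and every 24 h library stood below it. At 6 h over 0 h the rise was 17.1-fold in H47_Ctrl (log2 fold change 4.09, SE 0.25, edgeR quasi-likelihood test, Benjamini-Hochberg adjusted p = 1.8e-14) and 4.12 in log2 terms in H47_KO (SE 0.25, edgeR adjusted p = 1.43e-14). At 24 h over 0 h PTGS2 fell by 2.41 on the log2 scale in H47_Ctrl (edgeR adjusted p = 2.38e-08) and by 2.86 in H47_KO (edgeR adjusted p = 3e-10). The smaller rise at 12 h, 0.81 in H47_Ctrl (edgeR adjusted p = 0.0111) and 0.98 in H47_KO (edgeR adjusted p = 0.00155), lost its call in H47_Ctrl without replicate 1 at 12 h (adjusted p = 0.0534) and on TPM. The PTGS2 gene lies at chr1:186671791-186680922 on GRCh38. This GENCODE span reaches past the RefSeq start and takes in the promoter window shown above.

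In the CRISPRa arm the PTGS2 time course of VP64_A stayed high for longer. In VP64_Ctrl the normalized CPM was 12.2, 23.04 and 29.5 at 0 h, 546, 756 and 922 at 6 h, 65.1, 58.7 and 63.1 at 12 h, and 16.9, 18.5 and 10.1 at 24 h. In VP64_A it was 44.8, 53.1 and 55.0 at 0 h, 1929.6, 2314 and 1700.3 at 6 h, 756, 352 and 557 at 12 h, and 291, 193 and 247 at 24 h. The libraries of the 2 groups did not overlap at any of the 4 times. Such separation of 3 libraries from 3 is given here as a description. The share of all genes that separate was not computed. Expression rose at 6 h by a log2 fold change of 5.12 (SE 0.31) in VP64_Ctrl and 5.28 (SE 0.31) in VP64_A (edgeR adjusted p = 1.23e-14 and 5.69e-15). At 12 h over 0 h it was 1.55 in VP64_Ctrl and 3.44 in VP64_A (edgeR adjusted p = 7.9e-05 and 4.19e-11). At 24 h over 0 h it was −0.53 in VP64_Ctrl, which did not pass the test (SE 0.30, edgeR adjusted p = 0.252), and 2.26 in VP64_A (SE 0.28, edgeR adjusted p = 1.42e-07). From 6 to 24 h PTGS2 fell in all 4 groups, with log2 fold changes of −6.51 in H47_Ctrl, −6.98 in H47_KO, −5.64 in VP64_Ctrl and −3.02 in VP64_A.

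**Figure D1:**
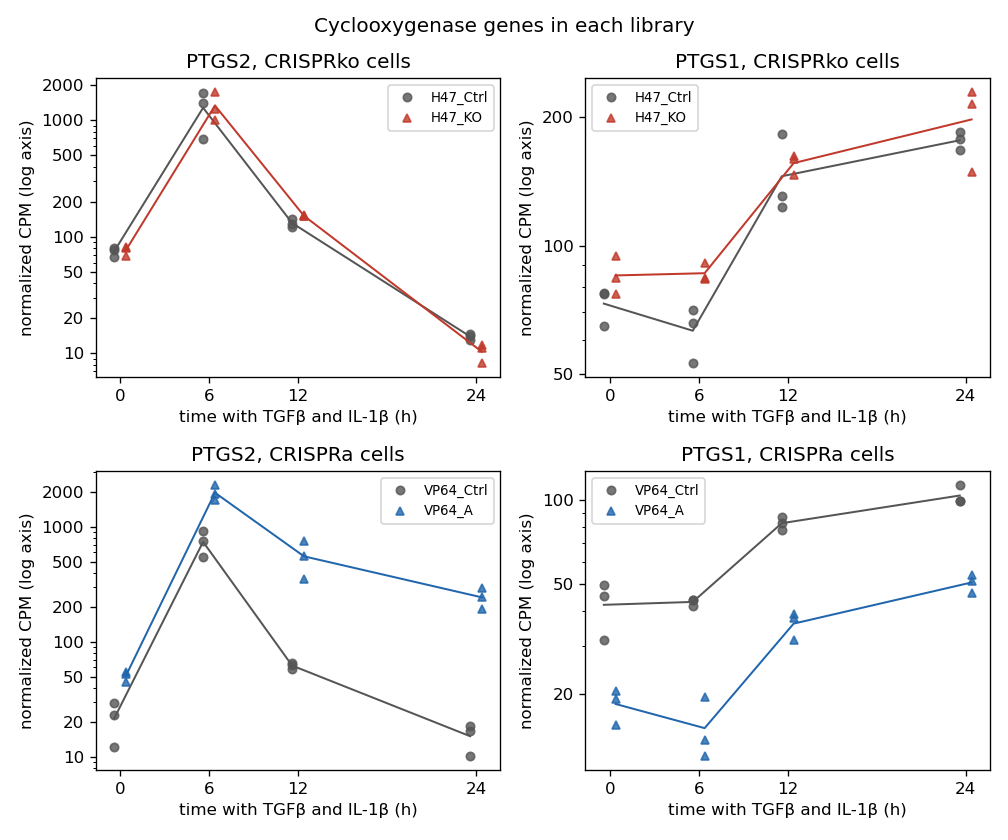
PTGS2 and PTGS1 in normalized CPM on a log axis against hours of TGFβ and IL-1β, with 1 point for each library and a line through the means of the 4 groups of cells. PTGS2 peaks at 6 h in every group and is still between 193 and 291 at 24 h in VP64_A, while PTGS1 is higher at 24 h than at 0 h in every group and lowest in VP64_A.

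PTGS1 moved later and less than PTGS2. Its normalized CPM in H47_Ctrl was 64.9, 76.9 and 77.5 at 0 h, 70.6, 52.9 and 66.0 at 6 h, 183, 123 and 131 at 12 h, and 177, 185 and 167 at 24 h. In H47_KO it was 94.6, 76.9 and 84.0, then 90.9, 83.7 and 83.9, then 146, 163 and 159, and then 229, 215 and 149. In VP64_Ctrl it was 45.3, 49.5 and 31.4, then 43.7, 43.9 and 41.7, then 78.3, 83.2 and 87.0, and then 99.5, 114 and 99.4. Each group thus had its 12 h and 24 h libraries above all of its 0 h libraries. In VP64_A the values were lower throughout, at 19.3, 20.6 and 15.5, then 13.8, 12.0 and 19.7, then 37.6, 31.5 and 38.9, and then 46.5, 51.5 and 54.0.

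No change of PTGS1 at 6 h passed the test in any group (log2 fold changes of −0.31 to 0.03, edgeR adjusted p of 0.275 or above). At 24 h over 0 h it rose in all 4 groups, with log2 fold changes of 1.27 in H47_Ctrl, 1.21 in H47_KO, 1.30 in VP64_Ctrl and 1.45 in VP64_A. These calls kept their direction and passed the test under every alternative run and with any library left out. At 12 h over 0 h it rose by 0.99, 0.88, 0.97 and 0.94 in the same order, and on TPM the 12 h call was lost in H47_KO, VP64_Ctrl and VP64_A. In H47_Ctrl the 12 h call was lost on log2(TPM + 1) without a filter (0.77, limma adjusted p = 0.0553). PTGS1 lies at chr9:122370530-122395703 on GRCh38.

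Per unit of length, the balance of the 2 cyclooxygenases turned over within a day. The ratio of PTGS2 to PTGS1 in TPM was 1.16 ± 0.175 (SD, n = 3) in H47_Ctrl at 0 h, 23.9 ± 12.7 at 6 h, 1.04 ± 0.147 at 12 h and 0.0893 ± 0.00961 at 24 h. In H47_KO it was 1.02 ± 0.145, 17.5 ± 5.31, 1.09 ± 0.0573 and 0.0612 ± 0.0205 at these times. PTGS1 RNA was therefore the more abundant of the pair in both groups at 24 h. VP64_Ctrl had ratios of 0.625 ± 0.386, 19.5 ± 5.46, 0.851 ± 0.0756 and 0.163 ± 0.0423, and VP64_A had 3.16 ± 0.751, 157 ± 60.5, 17.1 ± 5.05 and 5.46 ± 1.46. In VP64_A the mean ratio was above 1 at all 4 times. The VP64_Ctrl ratio at 0 h rested on replicate 3 (1.05, against 0.300 and 0.522 in the others) and was 0.411 without it. These ratios are descriptions with no test.

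**Figure D2:**
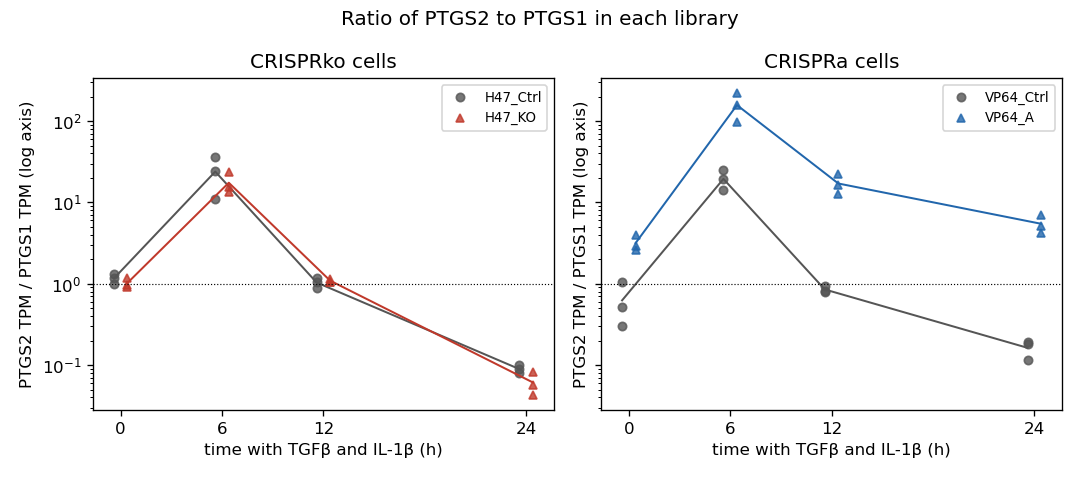
The ratio of PTGS2 to PTGS1 in TPM on a log axis against hours of stimulation, with 1 point for each library and a line through the group means. At 24 h the mean ratio is 5.46 in VP64_A and 0.163 or less in the other 3 groups.

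PTGES, the inducible prostaglandin E synthase that couples to PTGS2, was low in 3 groups and higher in VP64_A. In normalized CPM, VP64_A held 23.8, 22.6 and 25.5 at 0 h, 23.5, 33.1 and 33.1 at 6 h, 24.6, 25.3 and 20.9 at 12 h, and 37.1, 31.9 and 24.6 at 24 h. VP64_Ctrl held 5.38, 7.95 and 4.79, then 4.58, 4.54 and 8.69, then 2.17, 2.74 and 1.42, and then 2.09, 0.648 and 5.75. The 2 groups did not overlap at any time. H47_Ctrl held 3.38, 5.96 and 5.67, then 3.74, 2.99 and 1.96, then 0, 1.64 and 0.725, and then 1.52, 0.935 and 0.238. H47_KO held 6.01, 4.18 and 3.16, then 3.77, 7.43 and 2.58, then 1.94, 2.18 and 0.522, and then 1.56, 1.52 and 1.09. Outside VP64_A the 12 h and 24 h values rest on few counts. H47_Ctrl had 0 to 5 counts a library at 12 h and 1 to 8 at 24 h, where 3 counts stood for a mean of 1.06 and 0.895 normalized CPM. H47_KO had 2 to 14 and 5 to 14 counts, and VP64_Ctrl 5 to 15 and 2 to 45. The sizes of the falls given below are therefore uncertain.

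At 12 h over 0 h PTGES fell in H47_Ctrl by 2.57 on the log2 scale (edgeR adjusted p = 0.00465), in H47_KO by 1.42 (edgeR adjusted p = 0.043) and in VP64_Ctrl by 1.48 (edgeR adjusted p = 0.00389). At 24 h over 0 h it fell by 2.38 in H47_Ctrl (edgeR adjusted p = 0.00828) and by 1.69 in H47_KO (edgeR adjusted p = 0.0254). It was −0.90 in VP64_Ctrl, which did not pass (edgeR adjusted p = 0.067) but passed with DESeq2 (−0.94, adjusted p = 0.0417), with no filter and on TPM. Replicate 3 at 24 h decided that value: without it the log2 fold change was −1.96 (edgeR adjusted p = 0.000453). From 6 to 24 h it fell in H47_KO (log2 fold change −1.70, edgeR adjusted p = 0.0291). In H47_Ctrl the 24 h over 0 h call was lost without replicate 3 at 24 h (log2 fold change −1.89, adjusted p = 0.0799). The H47_KO calls were unstable: that of 12 h over 0 h was lost in 5 of 6 fits with a library left out, held only without replicate 3 at 0 h, and had adjusted p up to 0.182. That of 24 h over 0 h was lost without replicate 1 or 2 at 0 h or replicate 3 at 24 h (0.125, 0.0535 and 0.109), and that of 24 over 6 h without replicate 2 at 6 h or replicate 3 at 24 h (0.193 and 0.0995). On TPM both 24 h calls in H47_KO were lost. Within VP64_A no comparison of times passed (log2 fold changes of −0.02 to 0.37, edgeR adjusted p of 0.415 or above). PTGES lies at chr9:129738331-129753042.

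PTGFR, the prostaglandin F2α receptor, was the most abundant of the receptors among the members, at 0.384 to 22.2 TPM over the 48 libraries. Its normalized CPM in VP64_A was 24.0, 19.1 and 26.7 at 0 h, 43.6, 35.4 and 28.5 at 6 h, 18.04, 10.2 and 10.5 at 12 h, and 22.98, 18.5 and 18.3 at 24 h. In VP64_Ctrl it was 9.51, 15.4 and 11.5, then 20.6, 17.2 and 9.85, then 7.70, 4.38 and 5.97, and then 17.8, 13.3 and 13.03. Every VP64_A library stood above every VP64_Ctrl library of its time, though at 24 h the difference did not pass the test, as given below. H47_Ctrl held 7.70, 6.76 and 7.83, then 14.1, 15.7 and 6.87, then 2.21, 6.87 and 5.08, and then 5.90, 4.67 and 7.13. H47_KO held 6.01, 4.18 and 5.53, then 9.95, 5.95 and 13.2, then 1.29, 1.24 and 3.65, and then 4.43, 5.16 and 6.69.

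The 12 h level of PTGFR was below the 0 h level in H47_KO (log2 fold change −1.45, edgeR adjusted p = 0.0093), VP64_Ctrl (−1.02, edgeR adjusted p = 0.00564) and VP64_A (−0.91, edgeR adjusted p = 0.00847). The call was lost in H47_KO without replicate 1 or 2 at 12 h (adjusted p = 0.0665 and 0.0743), in VP64_Ctrl without replicate 2 at 12 h (0.0558) and in VP64_A without replicate 2 or 3 at 12 h (0.0737 and 0.053). From 6 to 24 h PTGFR fell in VP64_A (log2 fold change −0.85, edgeR adjusted p = 0.0166), and the adjusted p was 0.102 without replicate 1 at 6 h, 0.0608 without replicate 2 at 24 h and 0.0873 without replicate 3 at 24 h. This call was also lost on TPM (limma adjusted p of 0.187 to 0.273). At 6 h over 0 h the log2 fold change was 0.73 in H47_Ctrl, 0.92 in H47_KO, 0.46 in VP64_Ctrl and 0.63 in VP64_A, and none passed the test. It passed without replicate 3 at 6 h in H47_Ctrl (adjusted p = 0.0477), replicate 2 at 6 h in H47_KO (0.0361) and replicate 3 at 6 h in VP64_A (0.0373). On TPM the 6 h value turned negative in H47_KO and VP64_Ctrl. PTGFR lies at chr1:78303884-78540701 and shares its strand and part of its span with MGC27382.

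**Figure D3:**
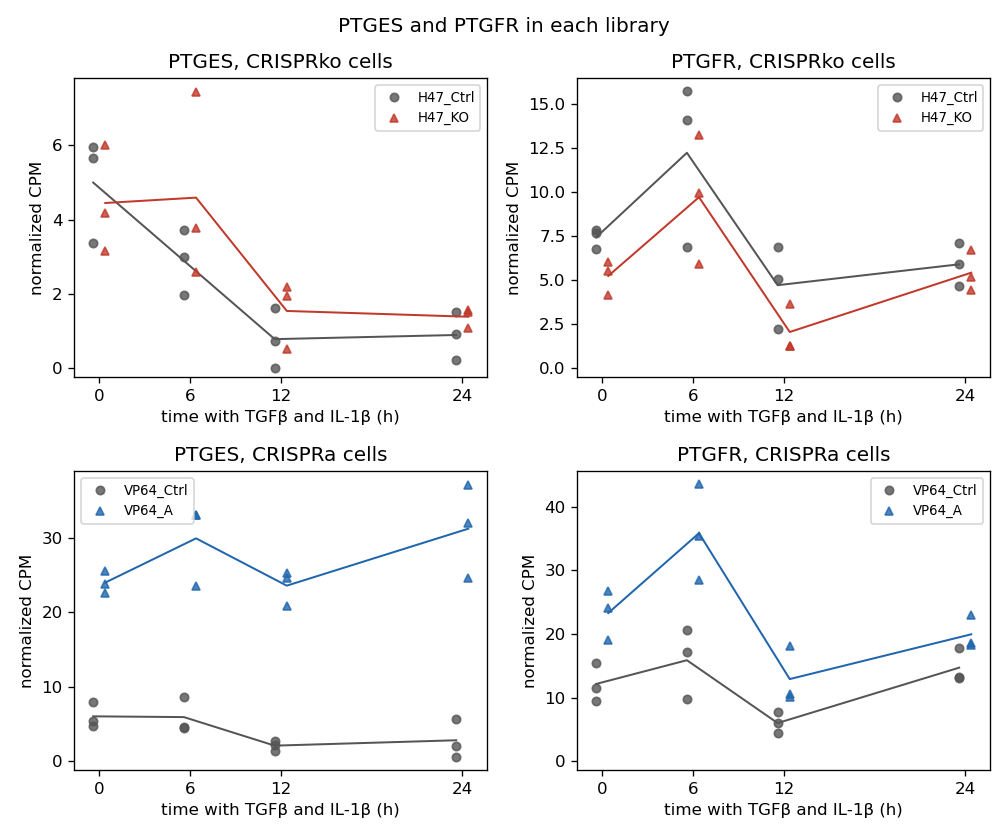
PTGES and PTGFR in normalized CPM against hours of stimulation, with 1 point for each library and a line through the means of the 4 groups of cells. PTGES in VP64_A stays between 20.9 and 37.1 and above every other library, and PTGFR in VP64_A lies above VP64_Ctrl at each time.

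Between the CRISPRa groups, PTGS2 and PTGES were higher and PTGS1 was lower in VP64_A at all 4 times, and PTGFR was higher up to 12 h. For PTGS2 the log2 fold change of VP64_A over VP64_Ctrl was 1.25 at 0 h (SE 0.28, edgeR adjusted p = 0.003), 1.42 at 6 h (SE 0.26, edgeR adjusted p = 0.000551), 3.15 at 12 h (SE 0.29, edgeR adjusted p = 2.38e-09) and 4.04 at 24 h (SE 0.31, edgeR adjusted p = 3.93e-11). For PTGES it was 1.96, 2.47, 3.42 and 3.24, with SEs of 0.28, 0.33, 0.36 and 0.33 and edgeR adjusted p of 8.89e-06, 4.09e-06, 4.95e-08 and 1.85e-08. For PTGS1 it was −1.19, −1.53, −1.21 and −1.03, with SEs of 0.17, 0.19, 0.17 and 0.16 and edgeR adjusted p of 7.65e-06, 1.02e-06, 8.76e-06 and 6.49e-05. The 2 cyclooxygenases thus stood on opposite sides of VP64_Ctrl at every time.

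For PTGFR the log2 fold change of VP64_A over VP64_Ctrl was 0.93 at 0 h (edgeR adjusted p = 0.00914), 1.09 at 6 h (edgeR adjusted p = 0.00527), 1.04 at 12 h (edgeR adjusted p = 0.0312) and 0.43 at 24 h, which did not pass (SE 0.25, edgeR adjusted p = 0.457). The PTGFR call at 0 h was lost without VP64_A replicate 3 or VP64_Ctrl replicate 1 (adjusted p = 0.0556 and 0.0628), and that at 6 h without VP64_A replicate 1 (0.0614). The call at 12 h was lost without VP64_A replicate 1 or VP64_Ctrl replicate 2 or 3 (0.141, 0.211 and 0.0911). On TPM the PTGFR difference at 0 h was 0.71 to 0.78 and did not pass (limma adjusted p of 0.135 to 0.186). On log2(TPM + 1) without a filter the 6 h and 12 h calls were lost too (0.0554 and 0.0798), as was the 12 h call with only the libraries compared (edgeR adjusted p = 0.0649). The PTGS2 difference at 0 h did not pass on TPM (log2 differences of 0.85 to 0.93, limma adjusted p of 0.0519 to 0.0982). The VP64_Ctrl libraries at 0 h had TMM factors of 1.21 to 1.84 and the VP64_A libraries 1.09 to 1.12. KRT14 was higher and the summed leukocyte markers, which are mostly CD68, were lower at 0 and 24 h in VP64_A, as given above.

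Of the 6 members tested, 4 were called between VP64_A and VP64_Ctrl at 0 h, where 9.41% of 10980 genes were called. At 6 h 4 of 6 were called against 3.76% of genes, at 12 h 4 of 6 against 4.31%, and at 24 h 3 of 6 against 4.13%. The median log2 fold change of the 6 members was 0.55, 0.77, 1.75 and 0.47 at these times, and that of all genes tested was −0.02, 0.01, 0.00 and −0.02. PTGER4 and PLA2G4A passed at none of these times. The members and lists were chosen with earlier results of these data known. These counts of calls, and those given below, are therefore descriptions.

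Whether the response to the cytokines itself differed was tested by the interaction of group and time. For PTGS2 in the CRISPRa arm this gave an edgeR adjusted p of 0.00012, with the 24 h response 2.79 higher on the log2 scale in VP64_A and the 6 h response 0.17 higher. It was the only interaction called among the 6 members, against 0.428% of genes, and its adjusted p lay between 2.11e-05 and 0.00113 with any 1 library left out and between 7.01e-20 and 0.0143 under the other alternatives. PTGES reached 0.351, PTGS1 0.771 and PTGFR 0.759 in the same test. The PTGES value rested on replicate 3 of VP64_Ctrl at 24 h, without which it was 0.0183, and it was 0.0182 with no filter on low counts.

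**Figure D4:**
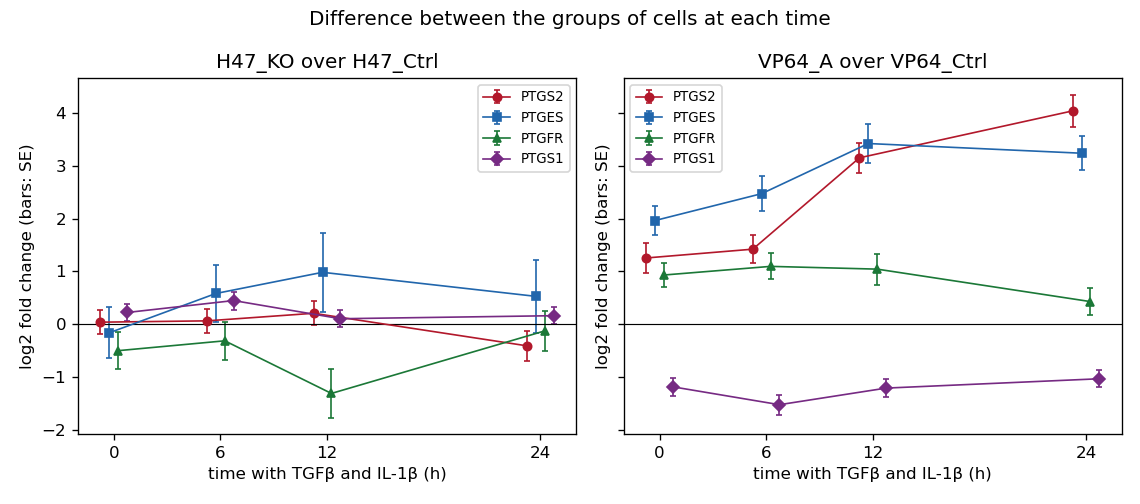
Log2 fold change of VP64_A over VP64_Ctrl and of H47_KO over H47_Ctrl for PTGS2, PTGS1, PTGES and PTGFR against hours of stimulation, with bars of 1 SE from the edgeR fit. In the CRISPRa arm PTGS2 climbs from 1.25 at 0 h to 4.04 at 24 h while PTGS1 stays between −1.53 and −1.03, and in the CRISPRko arm no point passed the test.

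Between H47_KO and H47_Ctrl none of the 6 members was called at any time. The 24 log2 fold changes lay between −1.31 and 1.01, with edgeR adjusted p of 0.295 to 0.971. Of these, 2 had an unadjusted p under 0.05: PTGS1 at 6 h (log2 fold change 0.45, adjusted p = 0.295) and PTGFR at 12 h (−1.31, adjusted p = 0.362). DESeq2 and limma on TPM called none either. Without a call, the libraries of the 2 groups still did not overlap in some cases. These were PTGS2 at 12 h (higher in H47_KO) and 24 h (lower), PTGS1 at 6 h (higher) and PTGFR at 0 h (lower). The share of all 10962 genes called was itself low, 0.301% at 0 h, 0.319% at 6 h, 0.0821% at 12 h and 0.21% at 24 h. The median of the members was −0.06, −0.12, 0.15 and 0.02, and that of all genes was 0.02, −0.03, 0.00 and 0.02. For PTGS2 the 4 log2 fold changes ran from −0.41 to 0.21 with SEs of 0.22 to 0.28, and for PTGES they ran from −0.16 to 0.98 with SEs of 0.48 to 0.75. In the interaction of H47_KO and time 0 of 6 members were called, against 0.0365% of genes, with adjusted p of 0.731 to 0.884. These values do not show that the 2 groups were alike.

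PTGER4, a prostaglandin E2 receptor that raises cAMP, was near the limit of detection, with 0 to 54 counts a library and at most 2.47 TPM. In VP64_Ctrl it had 14, 54 and 6 counts at 0 h and 0, 0 and 2 at 12 h. The edgeR log2 fold change of 12 h over 0 h was −3.76 (SE 1.16, adjusted p = 0.0109), and without replicate 2 at 0 h the call was lost (−2.68, adjusted p = 0.108), as it was without replicate 1 or 2 at 12 h (0.062 and 0.0677). Since the 12 h libraries hold 2 counts in all against 74, the ratio of 0 h to 12 h was 16.9, with an exact 95% counting interval of 4.51 to 142. It was the only call of PTGER4 in 24 comparisons. PTGER4 lies at chr5:40679915-40693735 and overlaps TTC33 on the opposite strand, and the kit keeps no strand.

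PTGER2, the other prostaglandin E2 receptor that raises cAMP, had 61 counts in all, in 16 of 48 libraries. In VP64_A it had 6, 3 and 1 counts at 0 h, 8, 8 and 2 at 6 h, 0, 0 and 2 at 12 h and 0, 0 and 2 at 24 h. In H47_Ctrl it had 1, 4 and 1 at 0 h, 6, 1 and 10 at 6 h and 0 in all libraries at 12 and 24 h. VP64_Ctrl had 6 counts in all, in 2 of its 12 libraries, and the 12 H47_KO libraries had 0. A count of 0 allows up to 3 counts, which is 0.281 to 1.29 CPM in a single library, and the gene was not tested. At 6 h all VP64_A libraries, with 18 counts, stood above those of VP64_Ctrl, all at 0, and at 0 and 6 h all H47_Ctrl libraries, with 6 and 17 counts, stood above those of H47_KO. These are counts with no test, and those of H47_Ctrl at 0 h were close to the limit of 3. At 6 h the H47_KO libraries were also smaller, with 2963560 to 3479573 estimated counts against 4659152 to 5661982 in H47_Ctrl. The gene lies at chr14:52314305-52328598.

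PLA2G4A, the phospholipase that supplies arachidonic acid, had 0 to 38 counts a library and at most 3.56 TPM. In H47_Ctrl it had 33, 12 and 13 counts at 6 h and 3, 0 and 0 at 24 h, and in H47_KO 7, 1 and 16 at 6 h and 4, 6 and 0 at 24 h. It fell from 6 to 24 h in H47_Ctrl (edgeR log2 fold change −3.67, SE 1.01, adjusted p = 0.00857) and in H47_KO (−2.37, SE 0.88, adjusted p = 0.041). The H47_Ctrl ratio of 6 h to 24 h from the summed counts, 58 against 3, was 13.97 with an exact 95% counting interval of 4.55 to 69.7. Without replicate 3 at 24 h the H47_Ctrl call was lost (adjusted p = 0.0649), and the H47_KO call without replicate 1 or 3 at 6 h (0.0693 and 0.336) or at 24 h (0.0894 and 0.198). PLA2G4A was not called in the CRISPRa arm. The gene lies at chr1:186828949-186988981.

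PTGIS, the prostacyclin synthase, had 2 counts in 2 libraries, and HPGD, the main enzyme of prostaglandin breakdown, had 0 counts in all 48. For HPGD a count of 0 in the 254189583 pooled counts allows up to 0.0118 CPM. PTGIS lies at chr20:49503874-49568137 and HPGD at chr4:174490175-174523154. These limits and the ratios above cover counting error only.

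**Figure D5:**
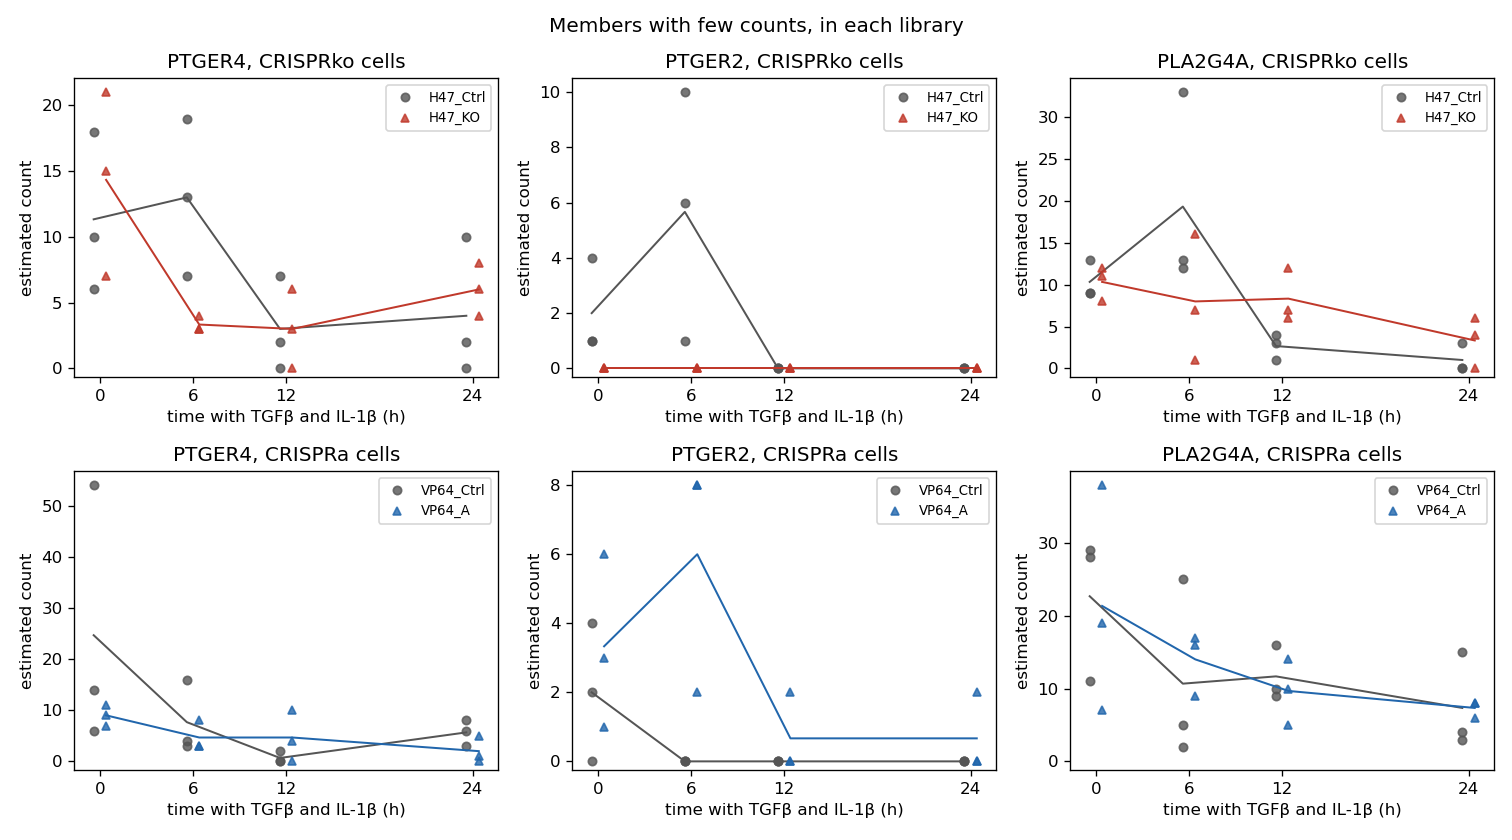
Estimated counts of PTGER4, PLA2G4A and PTGER2 in each library against hours of stimulation, with 1 point for each library and a line through the means of the 4 groups of cells. Counts reach 54 for PTGER4, 38 for PLA2G4A and 10 for PTGER2, and many libraries lie at 0.

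Over time, PTGS2 was the single member called at 6 h over 0 h in each group, 1 of 6 against 15.9% of genes in H47_Ctrl, 23.9% in H47_KO, 28.8% in VP64_Ctrl and 17.4% in VP64_A. At 12 h over 0 h, 3 of 6 were called in H47_Ctrl against 19.6% of genes, 4 of 6 in H47_KO against 27.4%, 5 of 6 in VP64_Ctrl against 26.8% and 3 of 6 in VP64_A against 19.7%. At 24 h over 0 h, 3 of 6 were called in H47_Ctrl against 10.3%, 3 of 6 in H47_KO against 15.8%, 1 of 6 in VP64_Ctrl against 16% and 2 of 6 in VP64_A against 13.6%. From 6 to 24 h, 3 of 6 were called in H47_Ctrl against 14.6%, 4 of 6 in H47_KO against 24.2%, 2 of 6 in VP64_Ctrl against 18.4% and 3 of 6 in VP64_A against 12.5%. In these calls PTGS1 rose each time, and PTGES, PTGFR, PTGER4 and PLA2G4A fell each time. Over the 16 time comparisons the median log2 fold change of the members lay between −1.68 and 0.58, and that of all genes between −0.10 and 0.08.

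The rest of the pathway was read from a list of 24 other prostanoid genes, of which 14 passed the filter in each arm. In the 16 time comparisons 1 to 7 of the 14 were called, where 10.3% to 28.8% of all genes were. Between VP64_A and VP64_Ctrl 2, 3, 3 and 2 of 14 were called at 0, 6, 12 and 24 h, against 9.41%, 3.76%, 4.31% and 4.13% of all genes, and between H47_KO and H47_Ctrl 0, 1, 0 and 0, against 0.301%, 0.319%, 0.0821% and 0.21%. The single call in the CRISPRko arm was AKR1C3, a prostaglandin F synthase, higher in H47_KO at 6 h (log2 fold change 1.48, edgeR adjusted p = 0.0295). That call was lost with any of the libraries left out (adjusted p of 0.0694 to 0.176). AKR1C3 was also called between the CRISPRa groups, lower in VP64_A at 6 and 12 h. With a library left out the 6 h log2 fold change was −1.75 to −1.23 (edgeR adjusted p of 0.000307 to 0.00669). The 12 h call was lost with any of the libraries left out (edgeR adjusted p of 0.074 to 0.149). No interaction of group and time was called in either arm.

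SLCO2A1, the transporter that takes prostaglandins up for breakdown, was the gene of this list called most often. It was higher in VP64_A than in VP64_Ctrl by 2.28, 1.97, 2.03 and 2.91 in log2 terms at 0, 6, 12 and 24 h (edgeR adjusted p = 0.00164, 0.00537, 0.00156 and 3.56e-05). Its mean normalized CPM rose in H47_Ctrl from 0.324 ± 0.195 at 0 h to 10.96 ± 2.61 at 24 h (SD, n = 3; edgeR adjusted p = 4.32e-07). In H47_Ctrl at 0 h 3 counts stood for a mean of 0.566 normalized CPM, so the starting mean lies below that limit. The VP64_Ctrl libraries held 3 to 12 counts each, 90 in all. The sizes of this rise and of these differences are therefore uncertain. The call between VP64_A and VP64_Ctrl was lost at 6 h without VP64_Ctrl replicate 1 (adjusted p = 0.108) and at 12 h without VP64_A replicate 2 (0.0522). It was also lost on log2(TPM + 1) at 0 h (log2 difference 0.64, limma adjusted p = 0.134) and on log2(TPM + 0.1) at 12 h (0.0722).

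AKR1B1, an aldose reductase with prostaglandin F synthase activity, rose at 24 h over 0 h in all 4 groups, by log2 fold changes of 2.76 in H47_Ctrl, 1.99 in H47_KO, 3.14 in VP64_Ctrl and 3.27 in VP64_A. Its lowest level in any library was 639 TPM, and its mean was 641 ± 16.6 normalized CPM (SD, n = 3) in H47_Ctrl at 0 h and 4336 ± 190.1 at 24 h. AKR1C3 moved the other way at 24 h over 0 h, by −1.44, −1.25, −1.56 and −1.01 in the same order of groups, all past the edgeR test. Both have prostaglandin F synthase activity, and their RNA changed in opposite directions in all 4 groups. The AKR1C3 call was lost in H47_Ctrl without replicate 1 at 24 h (adjusted p = 0.101) and in VP64_A without replicate 2 at 0 h or replicate 3 at 24 h (0.0523 and 0.15). In H47_KO the AKR1C3 call was lost on TPM (limma adjusted p of 0.0522 to 0.0883).

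PTGR1, a reductase that inactivates prostaglandin metabolites, was lower in VP64_A than in VP64_Ctrl by log2 fold changes of −1.18 at 0 h, −1.30 at 6 h and −1.19 at 12 h (edgeR adjusted p = 1.27e-05, 8.25e-06 and 2.5e-05). PTGIR, the prostacyclin receptor, rose at 12 h over 0 h in H47_Ctrl (1.41), VP64_Ctrl (0.95) and VP64_A (1.41), and was lower in VP64_A than in VP64_Ctrl at 24 h (−1.05, edgeR adjusted p = 0.00547, and 0.105 without VP64_A replicate 3). On TPM the PTGIR rise at 12 h was 0.11 to 0.12 in VP64_Ctrl and 0.88 to 0.96 in VP64_A, and neither was called (limma adjusted p of 0.811 or above and 0.108 to 0.198). The H47_Ctrl rise was lost on log2(TPM + 1) without a filter (adjusted p = 0.087), and the PTGIR difference at 24 h was lost in all 3 fits on TPM (0.0839 to 0.164).

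The genes whose mean log2 CPM followed a member most closely over the 16 conditions were sought among 11416 genes, and Pearson's r is given as a description over conditions that share cells and scaling. For PTGS2 they included WDR45B (r = 0.962) and TUBB2A (0.933), and for PTGS1 they were NTM (0.957), SEMA5A (0.948) and LRRC15 (0.936). For PTGES they were FAHD2A (0.934), TPGS2 (0.930) and PNMA2 (0.926), and for PTGFR they were HPRT1 (0.931), STXBP6 (0.920) and BCL2L1 (0.883). PTGER4 was most like CCBL1 (0.904) and PLA2G4A most like IFT57 (0.826), both at low counts.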

How the data were processed

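RNA-seq was performed on 48 libraries (Nextera XT, no strand kept). Per the labels and methods, the authors trimmed reads with Trim Galore, removed ribosomal reads with SortMeRNA, used STAR for alignment (GRCh38) and Salmon for quantification. Versions, annotation and strand setting are not given in the sources used here. The authors deposited estimated counts per gene, of which 6.38% are not whole, and TPM per gene, which are scaled for length. Estimated counts were rounded.

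Each arm (24 libraries, 8 groups) was fitted with edgeR 4.0.16 in R 4.3.3: filterByExpr (minimum count 10, total 15), TMM scaling, quasi-likelihood tests, and a threshold of 0.05 on p adjusted by Benjamini-Hochberg over the 10962 and 10980 genes kept. "Called" means past that threshold. Normalized CPM are counts scaled to the TMM-adjusted library size. Each condition had 3 libraries. The edgeR p-values use the spread between libraries of the same condition, estimated jointly over the 24 libraries of an arm. The study describes its cell culture replicates as independent, and the labels give only a replicate number. No 2 replicates held identical counts (48 pairs, chi-square per degree of freedom 3.59 or more). Replicate numbers did not pair the samples: in each arm 2 of 12 pairs had a correlation of deviations over 0.1.

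The script was tested on simulated data. Alternatives were DESeq2 1.42.0 and its size factors, no filter, limma 3.58.1 on log2(TPM + 1) or log2(TPM + 0.1), the compared libraries alone, a replicate block and leaving out each library.

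The members and lists were chosen with earlier results of these data known. Named were all 9 members, the genes of the wider list called in most comparisons (at most 5 an arm, without ties that exceed 5), and the 3 genes most like each tested member. For PTGER4 and PLA2G4A only the first is given. A gene that this rule names is not reported here. Gene positions are from GENCODE on GRCh38, and promoters from RefSeq.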

Additional observations from a re-analysis of the deposited data

Results flagged for a closer look

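The difference in PTGS2 between VP64_A and VP64_Ctrl changed with time. The test of the interaction of group and time in the CRISPRa arm gave an edgeR adjusted p of 0.00012, with a log2 fold change of VP64_A over VP64_Ctrl of 1.25 at 0 h and 4.04 at 24 h. The libraries of the 2 groups did not overlap at any time. PTGS2 also showed no overlap between H47_KO and H47_Ctrl at 12 and 24 h, where it was not called. KRT14 was also higher in VP64_A, and the summed leukocyte markers, which are mostly CD68, were lower there at 0 and 24 h. Their part in this difference was not tested.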

How the results depend on the processing

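The number of members called moved by over 1.5 times under these alternatives. With limma on log2(TPM + 1), on log2(TPM + 0.1) and on log2(TPM + 1) without a filter it was 2 for H47_KO at 24 over 6 h, 2 for VP64_Ctrl at 6 over 0 h, 2 for VP64_Ctrl at 24 over 0 h and 2 for VP64_A over VP64_Ctrl at 0 h. It was 1 for H47_Ctrl at 12 over 0 h without a filter, 2 for H47_KO at 12 over 0 h with + 0.1 or without a filter, and 3 for VP64_Ctrl at 12 over 0 h with + 1 or + 0.1. With only the libraries compared it was 2 for H47_KO at 6 over 0 h, for H47_KO at 24 over 6 h and for VP64_A at 6 over 0 h. VP64_Ctrl at 24 over 0 h had 2 with DESeq2 and 2 with no filter on low counts. With no filter on low counts VP64_A at 6 over 0 h had 2, and the interaction of VP64_A and time had 2. The cause was not tested. A member with no value under an alternative was counted as not called. PTGES and PLA2G4A in H47_KO at 24 over 6 h had values under 7 of 8 alternatives, and PTGER4 in VP64_Ctrl at 12 over 0 h under 5. PTGFR at 6 over 0 h reversed on TPM, to −0.048, −0.11 and −0.048 in H47_KO and −0.35, −0.40 and −0.35 in VP64_Ctrl. On log2(TPM + 1) the median of all genes lay between −0.65 (VP64_Ctrl, 6 over 0 h) and 0.53 (H47_KO, 24 over 6 h). The ratio of PTGS2 to PTGS1 from counts was 0.0794 in H47_Ctrl at 24 h, 0.972 in H47_KO at 12 h and 0.754 in VP64_Ctrl at 12 h.

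With 1 library left out, members called ran from 1 to 2, 2 to 3, 2 to 3 and 2 to 4 in H47_Ctrl (6, 12 and 24 over 0 h, then 24 over 6 h), 1 to 2, 2 to 4, 2 to 4 and 2 to 4 in H47_KO, 1 to 1, 3 to 5, 1 to 2 and 2 to 3 in VP64_Ctrl, and 1 to 2, 2 to 3, 2 to 2 and 2 to 3 in VP64_A. VP64_A over VP64_Ctrl had 3 to 4 at 0, 6 and 12 h and 3 at 24 h, and its interaction 1 to 2. H47_KO over H47_Ctrl and its interaction stayed at 0.

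The replicate numbers do not pair the samples. With them as a replicate block, VP64_A at 6 over 0 h had 2 members called, with PTGFR added (0.61, adjusted p = 0.0412), and PLA2G4A in H47_KO at 24 over 6 h was lost (−2.33, adjusted p = 0.0565). The block changed no other call printed for a member. Counts of 0 to 54 limit PTGER4, PLA2G4A and PTGER2. In the CRISPRko arm PTGES at 12 and 24 h is limited too, with 0 to 14 counts a library.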
